A study of Mus musculus with 18 samples.

Results

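The genes described here encode the machinery that brings a new protein into the endoplasmic reticulum (ER) and carries it on to the Golgi. They were chosen by name from 6 machines: the translocon, the signal recognition particle (SRP) with its receptor, signal peptidase, the COPII coat, the COPI coat with its ARF partners, and the cargo, retrieval and tethering proteins between ER and Golgi. The list holds 47 genes, and 45 of the 19938 genes measured on the arrays are members. Sec61g was read only by probe sets that carry several gene symbols and Kdelr2 was not matched to a probe set, and the expression of both is not analysed here. RNA came from mouse B16 F10.9-4 cells, a line of the pigmented B16 melanoma, on 18 one-colour Affymetrix arrays in 6 groups of 3, with 1 array of each group from each of 3 independent experiments, as which the replicate numbers of the labels were read. Cells without doxycycline were given vehicle, or tunicamycin over 5 h or 12 h; cells pretreated with doxycycline got no tunicamycin (0 h) or the same 2 lengths of it. Every group is of the same line, in which doxycycline, given before tunicamycin, switches on LIP, the short isoform of the transcription factor C/EBPβ that lacks most of its activating part. A doxycycline culture without LIP and a vehicle culture at 5 or 12 h were not used here, so doxycycline and LIP, and tunicamycin and time in culture, cannot be told apart.

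Proteins bound for secretion are recognised by SRP as they leave the ribosome, threaded through the Sec61 channel, and trimmed of their signal peptide. COPII coats then bud vesicles from ER exit sites towards the Golgi, and COPI coats bring escaped ER proteins and cargo receptors back. Tunicamycin blocks N-linked glycosylation, which loads the ER with unfolded protein and calls up the unfolded protein response, whose factors XBP1 and ATF6 act on genes of the secretory pathway.

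Values are log2 intensities from RMA, the authors' normalized probe set summary, and changes are differences of group means on that scale with their standard error (SE). A gene is said to rise or fall where limma's p, adjusted by Benjamini-Hochberg over all 19938 genes, was under 0.05. A stand-in for silent genes came from olfactory and vomeronasal receptors, 95% of which lay under 6.07; the 45 members each had a group mean above this level. Levels of different genes are not compared, since probe sets differ in brightness, and RMA understates the change of dim ones. All 7 melanocyte markers lay above 6.07 in every group (group means 6.52 to 13.73). Of 13 markers of fibroblasts, keratinocytes, immune and endothelial cells 4 did so (Pdgfra, Col1a1, Cd3e and Cd68), and the lysosomal marker Cd68 stood at 8.36 in vehicle and 7.37 in doxycycline with 12 h of tunicamycin, while the collagen gene Col1a1 stood at 7.62 and 8.04. The group means of all 7 melanocyte markers were lower with doxycycline at each time, as in Mitf (12.34 and 11.74 at 0 h) and Pmel (12.79 and 12.00 at 12 h). The part of these markers in the results was not tested. In bulk RNA fewer expressing cells and less RNA per cell cannot be told apart. Before tunicamycin Cebpb, the gene of LIP, stood at 9.33 in vehicle and 11.18 with doxycycline, a change of 1.84 ± 0.0709 (SE, adjusted p = 2.02e-11).

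Some members carry a short element at their start that is known from the unfolded protein response. TGACGTGG is the core of the unfolded protein response element (UPRE), a site that XBP1 is known to bind. It was searched on both strands in 300 bases around each annotated start (250 before, 50 after; RefSeq, GRCm38.p6), and 36 of the 47 members had such a region in the table. Of these 36, 5 held the element (13.9%), against 143 of 15614 genes on the array (0.916%). The 36 include Sec61g, which held no element and is not among the 15614. Arfgap3, Sec16a and Mcfd2, also among the 5 members with the largest rise at 12 h of tunicamycin, had a start region without it. The regions of those genes from 60 bases before to 40 after the start are shown 5′ to 3′ on the gene's strand, with the element in capitals (CCACGTCA is its reverse complement), beside the other Sec24 genes, which held no match:

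Sec24d: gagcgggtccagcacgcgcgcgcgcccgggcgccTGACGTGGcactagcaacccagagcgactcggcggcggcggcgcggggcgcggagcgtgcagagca

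Kdelr3: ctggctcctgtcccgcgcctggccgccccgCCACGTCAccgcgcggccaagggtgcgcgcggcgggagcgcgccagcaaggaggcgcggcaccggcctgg

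Sec23a: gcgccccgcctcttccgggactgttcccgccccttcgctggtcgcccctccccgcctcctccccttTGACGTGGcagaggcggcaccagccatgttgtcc

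Copb1: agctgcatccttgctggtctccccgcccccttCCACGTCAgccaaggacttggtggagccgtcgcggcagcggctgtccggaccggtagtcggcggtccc

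Copb2: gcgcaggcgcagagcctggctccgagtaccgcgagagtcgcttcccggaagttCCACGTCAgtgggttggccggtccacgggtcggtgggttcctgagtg

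Sec24a: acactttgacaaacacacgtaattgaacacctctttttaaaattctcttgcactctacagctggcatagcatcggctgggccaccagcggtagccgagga

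Sec24b: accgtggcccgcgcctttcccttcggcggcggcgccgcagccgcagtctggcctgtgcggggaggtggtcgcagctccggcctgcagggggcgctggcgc

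Sec24c: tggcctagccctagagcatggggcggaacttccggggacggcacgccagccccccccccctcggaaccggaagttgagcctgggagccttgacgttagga

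The Sec24d window lies at chr3:123267436-123267535 (+) and the Kdelr3 window at chr15:79516348-79516447 (+). The Sec23a window is chr12:59011978-59012077 (-), that of Copb1 chr7:114254641-114254740 (-) and that of Copb2 chr9:98563671-98563770 (+). The 3 Sec24 windows without a match are chr11:51756795-51756894 (-) for Sec24a, chr3:130060868-130060967 (-) for Sec24b and chr14:20674261-20674360 (+) for Sec24c. The first base of the element is 26 to 30 bases before the start in Sec24d (-26), Copb1 (-28) and Kdelr3 (-30), at -7 in Copb2 and at 7 in Sec23a. The longer ER stress elements ERSE (CCAAT, 9 bases, CCACG) and ERSE-II (ATTGG, 1 base, CCACG) were found on either strand in 0 of the 36 members, and in 0.134% and 0.0576% of genes on the array. The shorter string CCACG, which ends both ERSEs and overlaps the UPRE core on its other strand, was in 23 of the 36 (63.9%) and in 42.9% of genes on the array. The UPRE core was in 2.14% of genes that rose after 12 h of tunicamycin, 0.592% of those that fell and 0.779% of those not called. A match is a description of the letters, and binding was not measured.

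After 5 h of tunicamycin the secretory machinery had not risen. Of the 45 members 0 rose and 1 fell (limma), where 9.02% of all genes were called (4.08% up, 4.94% down). At an unadjusted p under 0.05, 5 members were called, 0 of them upwards, and 4466 of all 19938 genes, 2211 of them upwards. The member that fell was Sec23a, the inner COPII coat subunit that is the GTPase-activating protein of SAR1, by -0.19 ± 0.0434 (SE, adjusted p = 0.00788). It read 10.81, 10.90 and 10.89 in the vehicle arrays of experiments 1, 2 and 3 and 10.68, 10.72 and 10.62 after 5 h. The call was lost when only the compared groups were fitted (adjusted p = 0.0758), and the count was 0 without the tunicamycin 5 h array of experiment 3 and 2 without that of experiment 1. Median changes of the 6 machines lay between -0.05 and 0.01, beside 0.02 over all genes.

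After 12 h of tunicamycin 37 of the 45 members were higher and 1 lower, where 27.7% of all genes were called (11.9% up, 15.8% down). In 42 members the vehicle and 12 h arrays did not overlap, which held for 39.1% of all genes. The median change of the members was 0.36, a modest shift beside the 0.00 of all genes, and 3 members rose at least 2-fold: Sec24d, Arfgap3 and Kdelr3. The 7 not called were 1 or more members from each machine except COPI: Sec62, Srp14, Spcs1, Sec13, Sar1b, Kdelr1 and Tmed10. Between 5 and 12 h 40 members rose and 1 fell, where 25% of all genes were called (11.4% up, 13.6% down); the fall, of Sec24b by -0.15, passed narrowly (adjusted p = 0.0443) and was lost with only the compared groups (0.147) and in 13 of the 18 fits that left out an array (up to 0.227). The plot of both times sets the flat 5 h values beside the 12 h values for each gene.

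**Figure D1:**
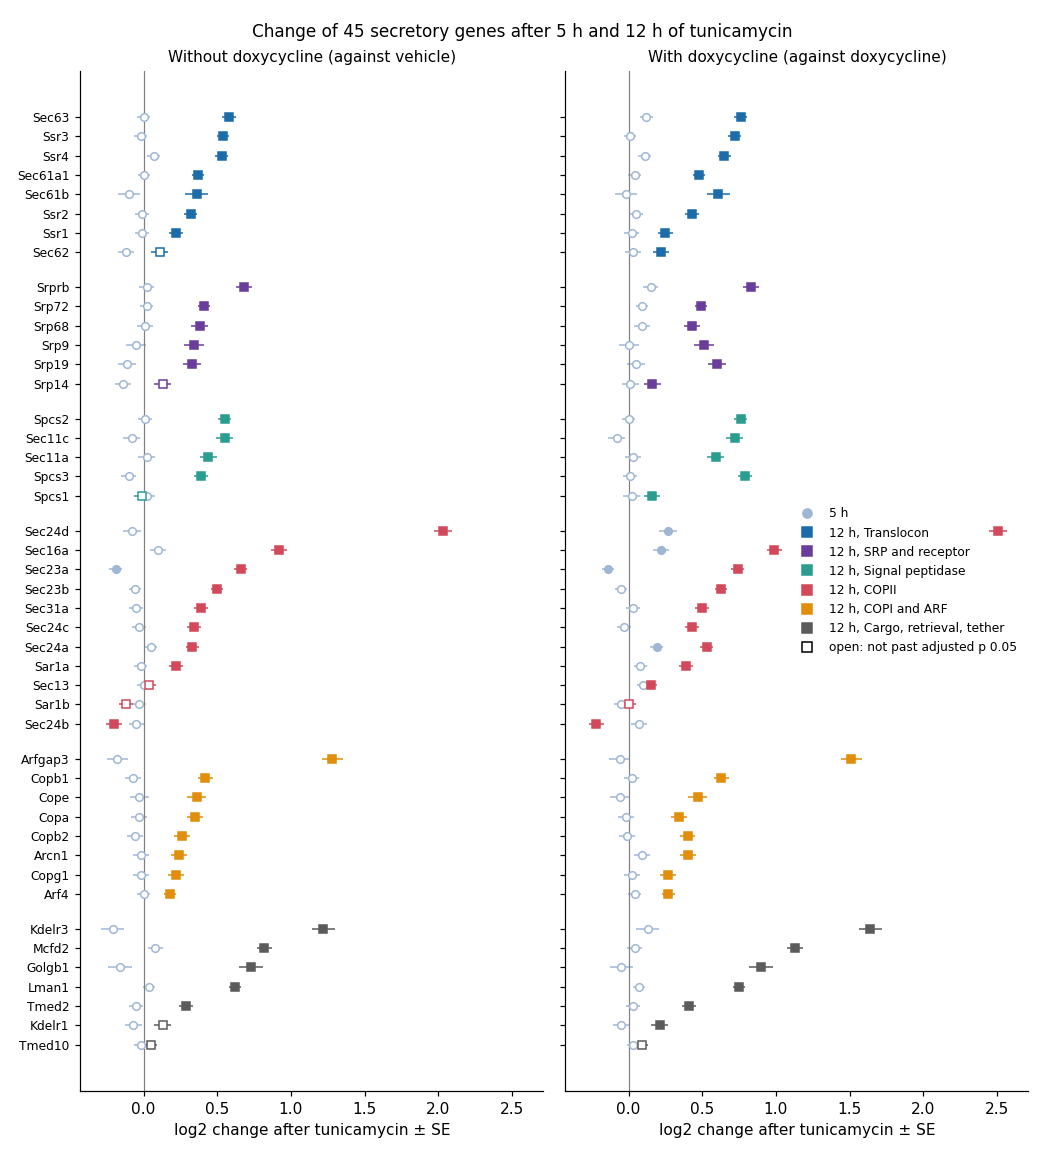
Log2 change after tunicamycin for the 45 measured genes, with the standard error as bars, at 5 h (circles) and 12 h (squares), without doxycycline on the left and with it on the right; genes are grouped and coloured by machine, and open symbols did not pass an adjusted p of 0.05. At 12 h 37 genes rose on the left and 42 on the right, with Sec24d far ahead at 2.03 and 2.51, while 5 h values lie near 0.

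In the translocon 7 of 8 measured genes rose at 12 h, with a median of 0.37 and a range of 0.11 to 0.58. Sec63, which couples the channel to the chaperone BiP, read 10.86, 10.83 and 10.84 in vehicle and 11.46, 11.39 and 11.42 after 12 h of tunicamycin. With doxycycline it read 10.76, 10.73 and 10.75 before tunicamycin and 11.57, 11.45 and 11.51 after 12 h; the 5 h arrays of both arms lay between 10.80 and 10.91. Its change was 0.58 ± 0.0447 (SE, adjusted p = 8.46e-09). Its vehicle and 12 h arrays did not overlap, as in 39.1% of all genes. Ssr3 and Ssr4, subunits of the TRAP complex beside the channel, rose by 0.54 and 0.53. Ssr3 read 11.95, 11.87 and 11.97 in vehicle and 12.46, 12.46 and 12.48 at 12 h, and Ssr4 11.07, 11.11 and 11.03 against 11.61, 11.59 and 11.58. Sec61a1, the pore itself, went from 12.93, 12.86 and 12.91 to 13.25, 13.25 and 13.32, a rise of 0.37. Sec61b (0.36), Ssr2 (0.32) and Ssr1 (0.22) also rose. All 3 probe sets of Sec61b changed alike (0.35 to 0.36). Sec62, the partner of Sec63 in post-translational import, stood at 0.11 and did not pass.

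Of the 6 SRP genes 5 rose, with a median of 0.36. The largest change was in Srprb, the membrane anchor of the SRP receptor, with 10.90, 10.73 and 10.84 in vehicle and 11.52, 11.51 and 11.48 at 12 h (0.68 ± 0.0527 SE, adjusted p = 8.78e-09). Its 5 h arrays read 10.91, 10.81 and 10.80, inside the vehicle range or within 0.01 of it. Among the particle's own proteins Srp72 changed by 0.41, Srp68 by 0.38, Srp9 by 0.34 and Srp19 by 0.33. The other, dimmer probe set of Srp9 changed by 0.48. Srp72 read 11.78, 11.73 and 11.73 in vehicle and 12.14, 12.14 and 12.18 at 12 h, and Srp68 11.44, 11.27 and 11.31 against 11.79, 11.71 and 11.67. Srp9 read 10.86, 10.75 and 10.89 against 11.23, 11.22 and 11.08. These groups did not overlap, as in 39.1% of all genes. Srp14, the partner of Srp9 in the domain that pauses translation, stood at 0.13 and did not pass.

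Signal peptidase, which cuts off the signal peptide, had 4 of 5 genes higher and a median of 0.44. Spcs2 went from 11.82, 11.74 and 11.81 to 12.35, 12.29 and 12.36 (0.55 ± 0.0456 SE, adjusted p = 2.43e-08), and the catalytic subunit Sec11c from 10.28, 10.25 and 10.28 to 10.77, 10.85 and 10.84 (0.55). The alternative catalytic subunit Sec11a, at 10.57, 10.66 and 10.77 in vehicle and 11.03, 11.16 and 11.14 at 12 h, rose by 0.44. Spcs3, the accessory subunit needed for cleavage, rose by 0.39. Spcs1 stood at -0.01 ± 0.0564 (SE, adjusted p = 0.921), with 11.42, 11.29 and 11.38 in vehicle and 11.36, 11.35 and 11.34 at 12 h; the vehicle arrays span those of the 12 h group.

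COPII held both ends of the range, with 8 of 11 genes higher, 1 lower and a median of 0.34. Sec24d, a cargo-selecting subunit of the inner coat, read 8.92, 8.94 and 8.96 in vehicle, 8.97, 8.74 and 8.87 after 5 h, and 10.91, 10.97 and 11.03 after 12 h. With doxycycline it read 8.66, 8.54 and 8.73 before tunicamycin, 8.97, 8.83 and 8.96 at 5 h, and 11.16, 11.18 and 11.13 at 12 h. All 6 arrays of the 12 h groups lay far above the other 12. Its change was 2.03 ± 0.0614 (SE, adjusted p = 2.18e-14), a 4.08-fold rise and the 23rd largest of the 19938 genes.

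Sec16a, the scaffold of ER exit sites, followed with 9.10, 9.13 and 9.12 in vehicle, 9.27, 9.16 and 9.23 at 5 h, and 9.95, 10.02 and 10.14 at 12 h (0.92 ± 0.0535 SE, adjusted p = 1.89e-10). Sec23a reversed its 5 h fall and reached 11.50, 11.54 and 11.54 (0.66 against vehicle and 0.85 against 5 h). Its paralog Sec23b went from 11.85, 11.86 and 11.91 to 12.39, 12.37 and 12.37 (0.50). The outer coat subunit Sec31a changed by 0.39, Sec24c by 0.34, Sec24a by 0.33 and the GTPase Sar1a, which starts coat assembly, by 0.22. Sec24b fell by -0.20 ± 0.0521 (SE, adjusted p = 0.00613), from 10.73, 10.73 and 10.66 to 10.41, 10.54 and 10.57. Sec13, shared with the nuclear pore, stood at 0.04, and Sar1b at -0.12 (adjusted p = 0.0848; with array medians set equal -0.16, adjusted p = 0.0210).

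**Figure D2:**
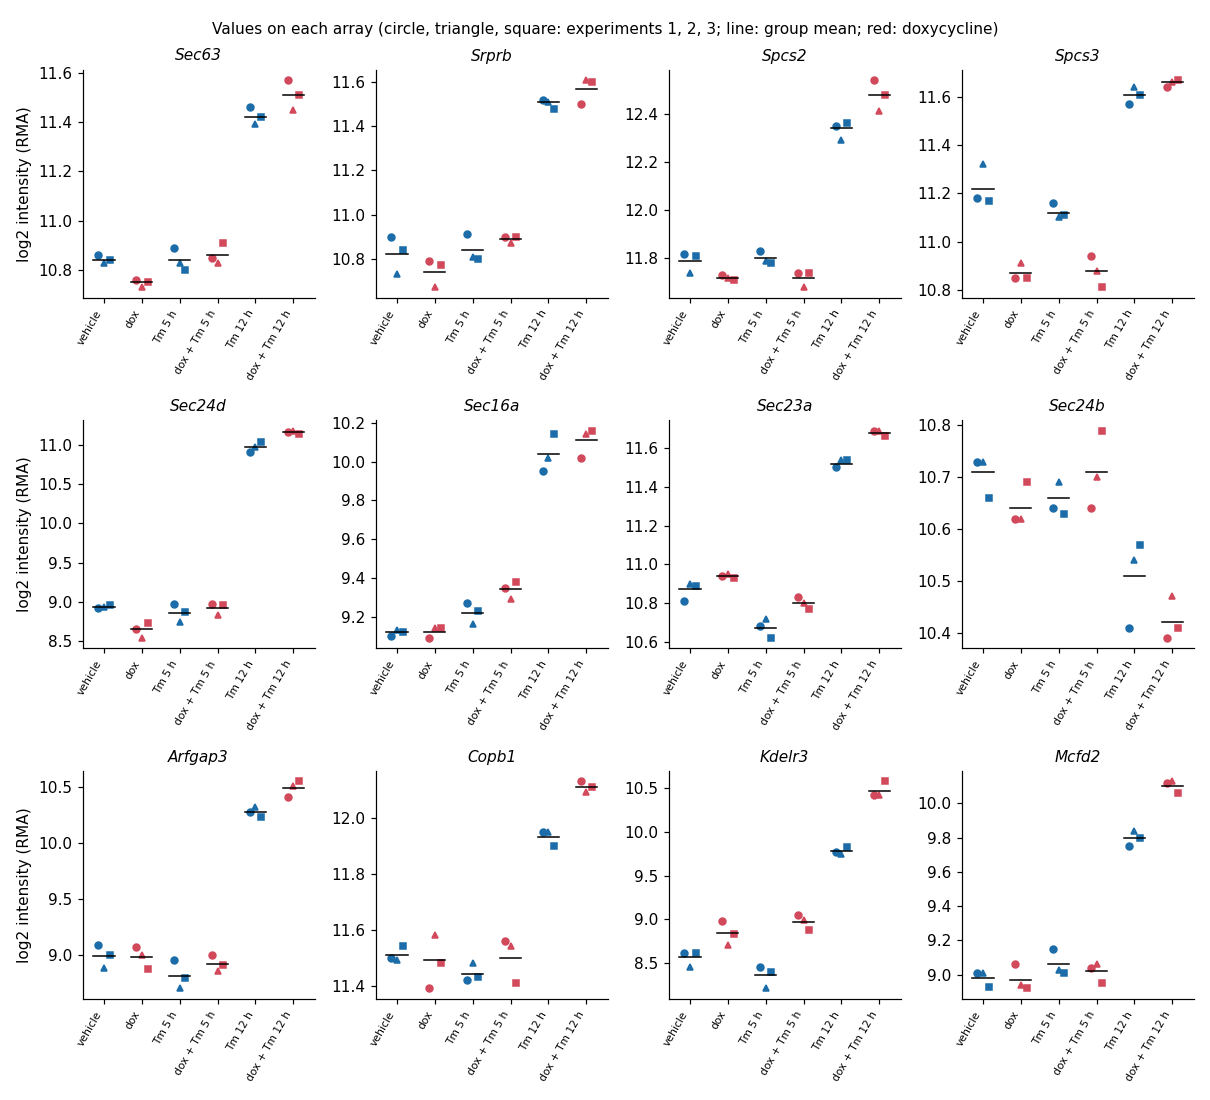
Log2 intensity of 12 genes on each of the 18 arrays; the marker shape gives the experiment, blue is without and red with doxycycline, and lines are group means. In 11 of the panels the 6 arrays at 12 h lie above all others, and in the Sec24b panel they lie below them. Most panels show genes picked for a large change at 12 h or a called interaction, so this separation was largely set by the choice. The share of all genes with this separation was not counted.

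All 8 COPI and ARF genes rose at 12 h, with a median of 0.31 and, apart from Arfgap3, changes of 0.18 to 0.42. Arfgap3, a GTPase-activating protein that acts on ARF in the COPI cycle, read 8.88 to 9.09 in the 3 vehicle arrays, 8.95, 8.70 and 8.79 after 5 h, and 10.27, 10.32 and 10.23 after 12 h. With doxycycline its values were 8.87 to 9.07 before tunicamycin, 8.92 ± 0.0715 (SD, n = 3) at 5 h, and 10.41, 10.51 and 10.55 at 12 h. Its change was 1.28 ± 0.0709 (SE, adjusted p = 9.13e-11), 2.44-fold. The coat subunits moved by less: Copb1 from 11.50, 11.49 and 11.54 to 11.95, 11.95 and 11.90 (0.42), Cope from 11.43, 11.37 and 11.50 to 11.79, 11.86 and 11.73 (0.36), and Copa from 12.81, 12.83 and 12.75 to 13.10, 13.12 and 13.23 (0.35). None of these groups overlapped, as in 39.1% of all genes. Copb2 (0.26), Arcn1 (0.24), Copg1 (0.22) and the GTPase Arf4 (0.18) rose too.

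Of the 7 measured cargo, retrieval and tethering genes 5 rose, with a median of 0.62. Kdelr3, a receptor that returns chaperones bearing a KDEL tail to the ER, read 8.62, 8.46 and 8.62 in vehicle, 8.45, 8.21 and 8.40 at 5 h, and 9.77, 9.75 and 9.83 at 12 h (1.22 ± 0.0768 SE, adjusted p = 5.79e-10). Lman1 and Mcfd2 form the receptor that carries coagulation factors V and VIII out of the ER, and both rose. Mcfd2 went from 9.01, 9.01 and 8.93 to 9.75, 9.84 and 9.80 (0.82), and Lman1 from 11.98, 11.91 and 11.99 to 12.57, 12.59 and 12.58 (0.62). The Golgi tether Golgb1 went from 8.73, 8.53 and 8.72 to 9.35, 9.44 and 9.38 (0.73). The p24 cargo protein Tmed2 rose by 0.29, while its partner Tmed10 stood at 0.05 and Kdelr1 at 0.13, neither past the threshold.

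Paralogs of the same machine, each read by its own probe set, changed by different amounts. The part of unequal probe set response, above all in the small differences, was not tested. Every pair within the Sec24, Sec23, Sar1, Sec11, Kdelr and Tmed members was compared. The difference of both genes on each array was added to the fit, and 9 of 11 pairs differed at 12 h. The pairs are not independent, since each Sec24 gene is in several of them. Other gene pairs were not compared, so no background share stands beside this count. Sec24d rose by 1.70 ± 0.0552 more than Sec24a (SE, adjusted p = 4.98e-14), by 2.23 ± 0.0669 more than Sec24b and by 1.69 ± 0.0546 more than Sec24c. Sec24a and Sec24c, at 0.33 and 0.34, differed by 0.01 ± 0.0478 (adjusted p = 0.919), and Sec11c and Sec11a by 0.11 ± 0.0613 (adjusted p = 0.248). Sec24b changed by -0.53 ± 0.0554 relative to Sec24a. Kdelr3 rose by 1.09 ± 0.0666 more than Kdelr1 (adjusted p = 3.89e-10), and Sar1b differed from Sar1a by -0.33 ± 0.0498 (adjusted p = 3.3e-05). Sec23b differed from Sec23a by -0.16 ± 0.0431 (adjusted p = 0.00827), and Tmed10 from Tmed2 by -0.24 ± 0.0476 (adjusted p = 0.000587). At 5 h 0 of the 11 pairs differed. Among the pairs, Sec24d, Kdelr3 and Sec23a are the members whose windows above hold the UPRE core. Sec11c and Tmed2 had no start region to search, and a link between the element and these differences was not tested.

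**Figure D3:**
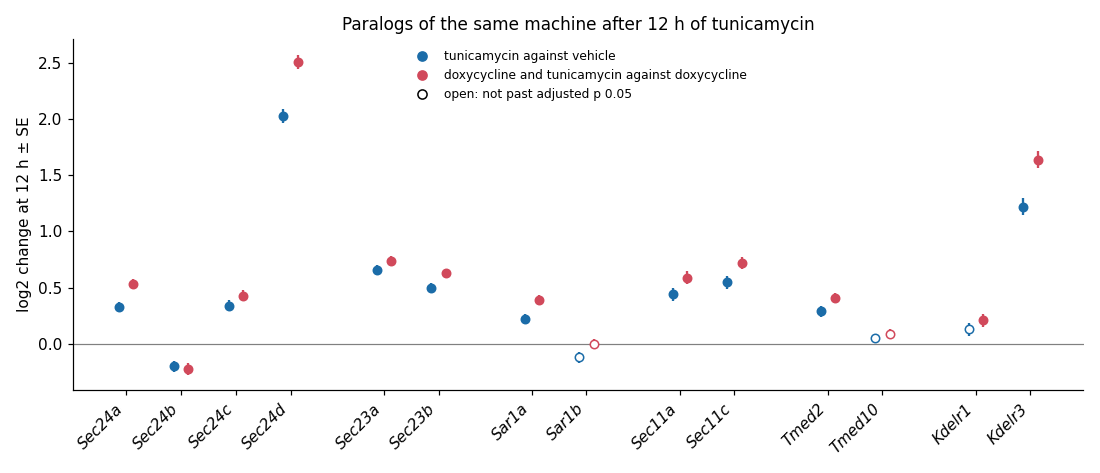
Log2 change at 12 h of tunicamycin with its standard error for paralogs, against vehicle (blue) and, with doxycycline, against doxycycline alone (red); open circles did not pass an adjusted p of 0.05. Sec24d (2.03 and 2.51) and Kdelr3 (1.22 and 1.64) stand above their relatives, and Sec24b (-0.20 and -0.22) lies under 0 in both arms.

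The changes after tunicamycin were also read within the doxycycline arm. Against doxycycline alone 3 members rose and 1 fell at 5 h, where 12.1% of all genes were called (6.54% up, 5.56% down): Sec24d (0.27, adjusted p = 0.00539), Sec16a (0.22, adjusted p = 0.0102) and Sec24a (0.19, adjusted p = 0.00754) rose and Sec23a fell by -0.14 (adjusted p = 0.0409; 0.0637 with array medians set equal and 0.0979 with only the compared groups). At 12 h 42 rose and 1 fell, where 29.9% of all genes were called (13.4% up, 16.6% down), and the median was 0.50. These 42 include all 37 that rose without doxycycline and, in addition, Sec62, Srp14, Spcs1, Sec13 and Kdelr1, at 0.15 to 0.22. The calls of Srp14, Spcs1 and Sec13 were lost with array medians set equal (adjusted p = 0.125, 0.102 and 0.0810), and those 3 and Kdelr1 each lost the call in at least 1 fit that left out an array. Sec24b again fell, by -0.22, and Sar1b (0.00) and Tmed10 (0.09) did not pass. From 5 to 12 h 39 rose and 1 fell, where 26.3% of all genes were called (10.9% up, 15.4% down).

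Cultures with and without doxycycline were compared at each time, and at 0 and 5 h the share of members called (11.1% each) was near that of all genes. Before tunicamycin 1 rose and 4 fell, where 10.7% of all genes were called (4.89% up, 5.82% down): Spcs3 (-0.35, adjusted p = 0.000145), Sec24d (-0.29, adjusted p = 0.00357), Sec61b (-0.26) and Ssr3 (-0.20) fell and Kdelr3 rose. Of the 45, 35 lay under 0, with a median of -0.05. Of all 19938 genes 8683 lay under 0, with a median of 0.02. As deposited 974 of all genes were called higher and 1161 lower. The counts were 1043 and 873 with array medians set equal, and 1245 and 1083 with quantile normalization repeated. Under both alternatives 1 member was called higher and 3 lower. The count of 5 was 3 without the doxycycline array of experiment 1 or the vehicle array of experiment 2, and the Sec61b call was lost with quantile normalization repeated (adjusted p = 0.0571) or array medians set equal (0.0527). Sec61b read 9.47, 9.52 and 9.52 in vehicle and 9.13, 9.20 and 9.39 with doxycycline.

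At 5 h of tunicamycin Kdelr3, Sec62 (0.20) and Srp14 (0.20) were higher with doxycycline and Spcs3 (-0.25) and Ssr3 (-0.16) lower, where 12% of all genes were called (6.76% up, 5.21% down). With array medians set equal 4 members were higher and 1 lower, and of all genes 1542 were higher and 726 lower, against 1348 and 1038 as deposited. With the experiment as a block Sec61b (-0.19, adjusted p = 0.0357) was also called. Without the tunicamycin 5 h array of experiment 2, whose residual SD of 0.113 was the highest of the 18 arrays, 2 members were called. With only the compared groups 2 were called, Kdelr3 and Spcs3.

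At 12 h 9 members were higher with doxycycline and 0 lower, where 14.7% of all genes were called (6.95% up, 7.77% down). Called or not, 38 of the 45 lay above 0, with a median of 0.07, and 9693 of all 19938 genes, with a median of 0. The 9 called members were Kdelr3, Mcfd2 (0.30), Srp19 (0.23), Spcs1 (0.23), Arfgap3 (0.22), Copb1 (0.18), Sec23a (0.16), Sar1b (0.15) and Spcs2 (0.14). The 12 h count rests on few arrays: it was 3 without the tunicamycin 12 h array of experiment 1 and 2, Kdelr3 and Mcfd2, with only the compared groups fitted. With array medians set equal 11 members were higher and 0 lower, and of all genes 1575 were higher and 1162 lower, against 1386 and 1550 as deposited. Sar1b was lost with the experiment as a block (adjusted p = 0.0531), while Sec24d (0.18, adjusted p = 0.0510) passed with it (0.0384).

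Kdelr3 was the member that doxycycline raised at all 3 times. It read 8.98, 8.71 and 8.83 with doxycycline alone, 9.05, 8.99 and 8.88 with 5 h of tunicamycin, and 10.42, 10.42 and 10.58 with 12 h. Each doxycycline array lay above every array of the matching group without it. The differences were 0.27 ± 0.0768 (SE, adjusted p = 0.0260) at 0 h, 0.61 ± 0.0768 (adjusted p = 2.06e-05) at 5 h and 0.69 ± 0.0768 (adjusted p = 3.56e-06) at 12 h. Leaving out either the vehicle array of experiment 2 or the doxycycline array of experiment 1 or 3 ended the 0 h call (adjusted p = 0.133, 0.155 and 0.0657). The difference exceeded that of Kdelr1 by 0.20 ± 0.0666 at 0 h, which did not pass (adjusted p = 0.0686), by 0.52 ± 0.0666 at 5 h (adjusted p = 2.73e-05) and by 0.54 ± 0.0666 at 12 h (adjusted p = 1.21e-05).

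**Figure D4:**
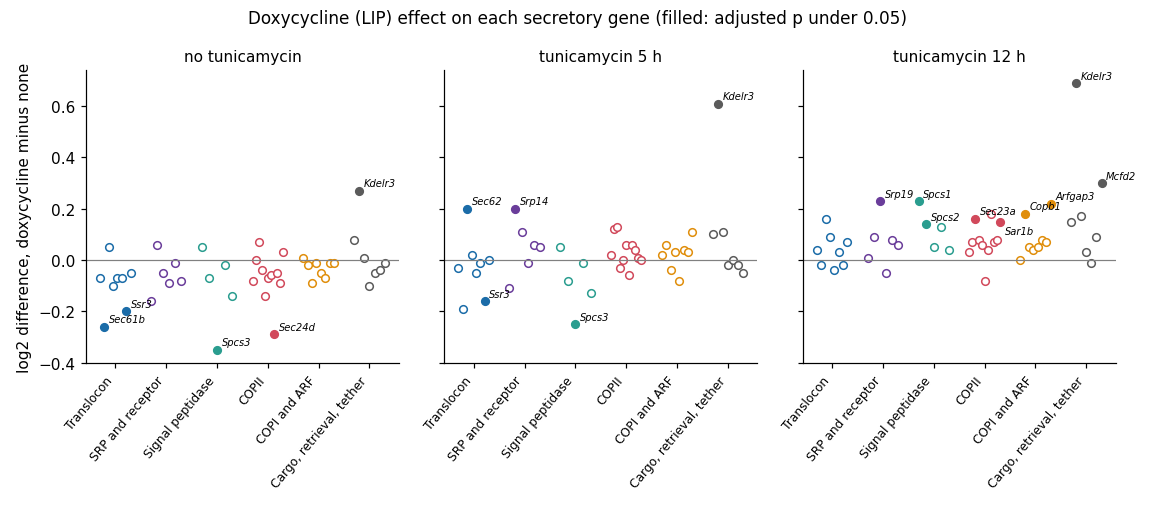
Log2 difference between cultures with and without doxycycline for each of the 45 genes, by machine, at 0, 5 and 12 h of tunicamycin; filled and named points passed an adjusted p of 0.05. The points named at 0 h lie below 0 apart from Kdelr3 (0.27), and those named at 12 h lie above 0.

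The doxycycline by tunicamycin interaction (limma), the change with doxycycline minus the change without, was called for 3 members at 12 h, where 1.84% of all genes were called. At 5 h it was called for 0 members, where 0.0301% of all genes were called. At an unadjusted p under 0.05, 3 of the 45 members and 1651 of the 19938 genes were called at 5 h. Spcs3 read 11.18, 11.32 and 11.17 in vehicle, 10.85, 10.91 and 10.85 with doxycycline, 11.57, 11.64 and 11.61 after 12 h, and 11.64, 11.66 and 11.67 after 12 h with doxycycline. It therefore started lower with doxycycline and ended within 0.05 of the other arm, and rose by 0.79 with doxycycline and 0.39 without, a difference of 0.40 ± 0.0708 (SE, adjusted p = 0.00471). Sec24d also started lower with doxycycline but its 12 h arrays with doxycycline lay above those without (difference 0.18, adjusted p = 0.0510), and its rises of 2.51 and 2.03 differed by 0.48 ± 0.0868 (SE, adjusted p = 0.00579). Mcfd2 had another: its 0 h arrays, 9.06, 8.94 and 8.92 with doxycycline, overlapped those of vehicle, and its 12 h arrays, 10.12, 10.13 and 10.06, lay above those without. Its interaction was 0.31 ± 0.0749 (SE, adjusted p = 0.0390).

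Leaving out each of the 18 arrays kept the call of Spcs3 and Sec24d every time and ended that of Mcfd2 in 9 cases (adjusted p up to 0.116). The interaction of Kdelr3, 0.42 ± 0.109, did not pass (adjusted p = 0.0575) but did with the experiment as a block (0.0288), with only the compared groups (0.0485) and with dim genes left out (0.0403). In 43 of the 45 members the 12 h change was more positive with doxycycline than without, where this held for 8871 of all 19938 genes. The median difference was 0.13 beside -0.02 over all genes. It is also the doxycycline difference at 12 h minus that at 0 h, where 35 of the 45 lay under 0.

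Genes of neighbouring machinery, from lists also chosen with results known, were read beside the 11.9% of all genes that rose and 15.8% that fell. Of 14 other COPII and exit-site genes 7 rose and 2 fell after 12 h of tunicamycin (median 0.16), with the collagen export receptors Mia3 (0.77) and Ctage5 (0.77) and Preb, the exchange factor of SAR1 (0.57), ahead. Of 29 ER-Golgi tethers and SNAREs 14 rose and 6 fell (median 0.12), led by the SNAREs Stx5a (1.21) and Bet1 (1.12) and the tether Uso1 (1.05). Of 21 other cargo receptors 9 rose and 4 fell (median 0.10), with Tmed3 (1.12), Tmed9 (0.65) and Yipf5 (0.63) ahead, and of 10 other COPI and ARF genes 4 rose and 1 fell (median 0.15), with the ARF exchange factor Gbf1 at 0.38, Arf3 at -0.34 and Copz1 at 0.29. Of 4 other targeting and translocon genes Srpr, the other subunit of the SRP receptor (0.56), and Tram1 (0.24) rose and Tram2 fell by -0.62. Of 15 genes of the ER membrane complex and of tail-anchor insertion 3 rose and 4 fell (median -0.06), with Emc8 (-0.36), Get1 (-0.35) and Emc7 (0.29). Clathrin and its adaptors, which act after the Golgi, had 1 of 20 up and 4 down (median -0.05), a called share of 25% beside the 27.7% of all genes, with Ap1s2 (-0.46), Ap1s1 (-0.36) and Ap2s1 (-0.35). Of the 108 measured genes of these lists and of the regulators with a start region, 5 held the UPRE core (4.63%): Stx5a, Gbf1, Scfd1 (0.81), Arf1 (0.05, adjusted p = 0.577) and Sec16b (0.11, adjusted p = 0.475).

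**Figure D5:**
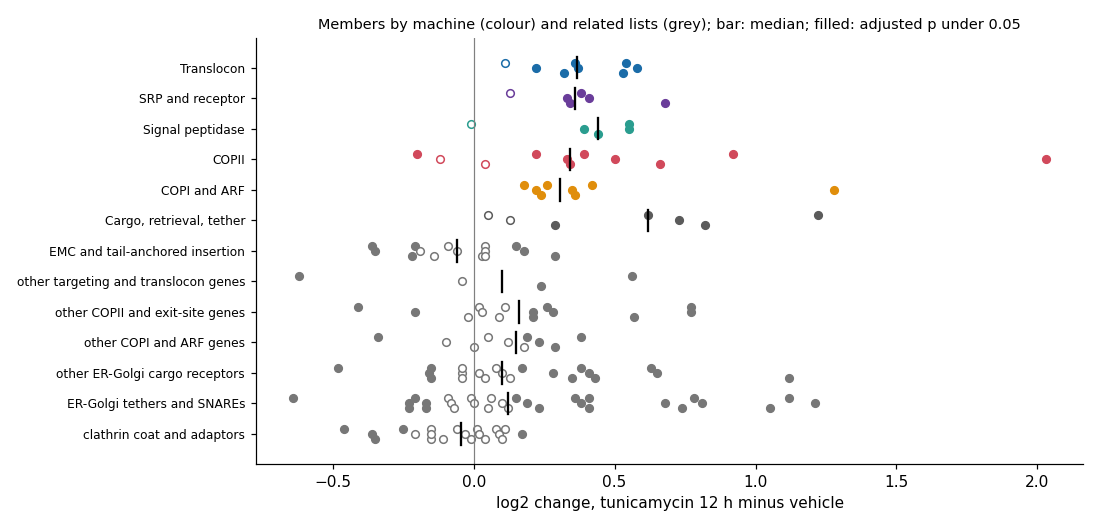
Log2 change at 12 h of tunicamycin against vehicle for the members by machine (coloured) and for related lists (grey); each point is a gene, filled where the adjusted p was under 0.05, and black bars are medians. Machine medians lie between 0.31 and 0.62, those of the related lists between -0.06 and 0.16.

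Genes of factors known to act on the secretory pathway were read beside the members. Ern1, the sensor whose RNase splices Xbp1, was higher after 5 h (0.63) and 12 h (0.85). Xbp1 stood at 0.13 at 5 h (adjusted p = 0.239) and rose by 0.99 at 12 h, Atf6 by 1.39 and Atf6b by 0.17. Creb3l2, a factor known to drive Sec23a in cartilage, rose by 0.58 and Creb3 by 0.39, while Creb3l1 fell by -0.25 and Creb3l3 (0.08) and the protease Mbtps1 (-0.02) did not pass. With doxycycline before tunicamycin Xbp1 was lower by -0.39 and Ern1 by -0.45; at 12 h Xbp1 differed by -0.07 (adjusted p = 0.575), and its interaction was 0.32 (adjusted p = 0.0740). Ddit3, the gene of CHOP, rose by 1.17 at 5 h and 2.89 at 12 h, and Cebpb by 0.96 at 12 h. Among the 11 measured genes of this list, Cebpb included, the largest doxycycline difference was 1.84 at 0 h, 1.81 at 5 h and 1.22 at 12 h. The 12 h interaction was called for 1 of these 11, downwards, where 1.84% of all genes were called, and ranged from -0.62 to 0.32. These probe sets read total transcript, not Xbp1 splicing or ATF6 cleavage.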

How the data were processed

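For each of 18 arrays the deposited table holds log2 intensities of 35557 probe sets; RMA and Partek are named in the submitters' processing notes, and their versions and settings, like a genome build, are not given in the sources used here. No further normalization was applied. Probe sets with 1 gene symbol in the platform annotation (21789) were kept, the brightest per gene, which left 19938 genes. limma 3.58.1 (R 4.3.3) was fitted to the means of 6 groups, with 12 residual and 5.99 prior degrees of freedom and Benjamini-Hochberg adjustment over all genes in each of 11 comparisons; the number of arrays limits the precision. Paralog differences were added as rows to the same fit. Data were simulated from the vehicle means and residual spreads, with 200 changed genes among 19938. With the changes placed in the tunicamycin 12 h group, 65% of changes of 0.3 and 94% of changes of 0.6 on the log2 scale were recovered. In the 5 h group 53% and 96% were. Unchanged genes called were 7 and 12. Means and spreads were the same in both runs, so their difference says nothing about time. The data differ from this setting, with 5516 genes called at 12 h and 1798 at 5 h.

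Members, lists, tests and the motif search were chosen with earlier results of these data known. Any member could be named; array values were set out for up to 4 members per machine with the largest called change at 12 h of tunicamycin and for members with a called interaction at 12 h, and the member of each machine with the smallest change was named. Array values of Spcs1, Sec24b and Sec61b were added after their values were seen. From related lists up to 3 called genes with the largest absolute change were named, and each regulator measured; other genes there were named for their motif. Per the series design each of 3 experiments held all 6 conditions; that the labels' replicate numbers are those experiments is a reading, and the arrays did not show it: deviations from group means of same-numbered arrays had a median r of 0.04 (-0.50 to 0.50; 14 of 45 pairs over 0.1). The alternatives were the experiment as a block, quantile normalization repeated, array medians set equal, dim genes left out, probe sets of a gene averaged, only the compared groups, a 2-fold minimum, and leaving out each array.

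Arrays of a group correlated at r of 0.997 to 0.999, and 0 pairs were identical.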

Additional observations from a re-analysis of the deposited data

Results flagged for a closer look

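The effect of 12 h of tunicamycin differed between cultures with and without doxycycline, by limma's interaction test, for 3 of the 45 members. Of all genes 1.84% were called in this test (0.993% up, 0.848% down). Spcs3 rose by 0.79 with doxycycline and 0.39 without, an interaction of 0.40 ± 0.0708 (SE, adjusted p = 0.00471). The interaction of Sec24d was 0.48 ± 0.0868 (SE, adjusted p = 0.00579), from rises of 2.51 and 2.03. Mcfd2, with rises of 1.13 and 0.82, had an interaction of 0.31 ± 0.0749 (SE, adjusted p = 0.0390), which was not called in 9 of the 18 fits that left out an array.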

How the results depend on the processing

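Of the 189 member results called over the 11 comparisons, 0 changed sign under any alternative. The experiment as a replicate block lost 1 call and gained 4, those named in the report for Sec61b, Sar1b, Sec24d and Kdelr3 and that of Spcs1 between 5 and 12 h with doxycycline (0.15, adjusted p = 0.0322), and it changed no other call; with it 38 members were called at 12 h of tunicamycin, as without it. Quantile normalization repeated lost 2 calls and gained 3, array medians set equal 7 and 4, dim genes left out 0 and 8, averaging the probe sets of a gene 0 and 0, and only the compared groups 17 and 1.

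With only the compared groups the members called were 0 at 5 h of tunicamycin (1 in the report), 2 for doxycycline at 5 h (5) and 2 for doxycycline at 12 h (9). A 2-fold minimum left 3 members at 12 h of tunicamycin and 3 from 5 to 12 h, 4 and 4 with doxycycline, and 0 for tunicamycin at 5 h without or with doxycycline, for doxycycline at 0, 5 and 12 h and for the 12 h interaction.

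Leaving out each array gave 0 to 2 members called at 5 h of tunicamycin, 38 in each fit at 12 h, and 39 to 41 from 5 to 12 h. With doxycycline the ranges were 3 to 4, 40 to 43 and 39 to 41. For doxycycline against none they were 3 to 5 at 0 h, 2 to 5 at 5 h and 3 to 10 at 12 h, and for the interactions 0 in each fit at 5 h and 2 to 4 at 12 h. Causes of these differences were not tested. With 3 arrays a group, changes of 0.3 on the log2 scale were recovered in part in the simulated data, and smaller ones were not simulated.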
